A study of Homo sapiens with 12 samples.

Results

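The 3 arrays labelled HLY at 1% oxygen (HLY-hypoxia arrays) were compared gene by gene with the 3 arrays labelled SUDHL2 at 21% oxygen (SUDHL2-normoxia arrays), 6 of the 12 arrays in the series. HLY-1 and SUDHL2 are human diffuse large B-cell lymphoma lines, each used as a single line, and each was cultured in hypoxia (1% oxygen) or normoxia (21% oxygen), with 3 biological replicates per condition. No drug or genetic change is listed for any group, and the labels give no time in hypoxia for the arrays. Expression was read on Illumina HumanHT-12 v4 beadchips, and 9621 genes were tested after background correction and quantile normalization, with values on the log2 scale.

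The 6 arrays were put together because of their measured values, so what set them together is described here without a test. Over the 9621 genes, the 9 pairs of 1 HLY-hypoxia and 1 SUDHL2-normoxia array had correlations of 0.978 to 0.986, close to the 0.987 to 0.993 among the HLY-hypoxia arrays themselves. The HLY-hypoxia arrays had correlations of only 0.755 to 0.760 with the arrays labelled HLY at 21% oxygen, and the SUDHL2-normoxia arrays only 0.744 to 0.774 with those labelled SUDHL2 at 1% oxygen. These correlations share a normalization and the gene-to-gene brightness of the platform. The other 6 arrays resembled each other in the same crossed way, at 0.970 to 0.982. Line labels and expression patterns therefore ran against each other, and which labels describe which cells was not tested. Every group below is named as labelled. In each pair of like groups the labelled line changes together with the oxygen level. Differences worded below as those at 1% oxygen cannot be told apart from differences between the labelled lines.

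Of the 9621 genes, 60 (0.624%) differed by at least 1 on the log2 scale between the HLY-hypoxia and SUDHL2-normoxia arrays, 36 higher and 24 lower in HLY hypoxia. Within the HLY label the corresponding count between oxygen levels was 3072 genes (31.9%), and within the SUDHL2 label 3151 (32.8%). The other pair of like groups, SUDHL2 hypoxia against HLY normoxia, gave 175 genes (1.82%). That pair shares no array with the first and was used to test the same genes in other arrays. It was itself known to consist of like arrays, and it shares the normalization and the estimate of spread with the first pair.

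Both groups detected all 6 of the activated B-cell and plasma-cell markers examined. Of 10 B-cell markers on the array, however, only CD74 and HLA-DRA were detected on all 3 arrays in HLY hypoxia and in SUDHL2 normoxia, against 9 of 10 in each of the other groups. CD79B, CD22, BLK, BANK1 and EBF1 were detected on none of the 6 arrays. Summed B-cell marker intensity, which CD74 and HLA-DRA carried, was 14730 to 17737 in HLY hypoxia and 12334 to 17881 in SUDHL2 normoxia. No NK-cell, myeloid, stromal or erythroid marker was detected throughout either group, and the T-cell marker TRAT1 and the endothelial marker PECAM1 were detected on all 6 arrays. The remaining T-cell markers were undetected except CD2, which was above background on 2 HLY-hypoxia arrays and on no SUDHL2-normoxia array. Summed T-cell marker intensity was 987 to 1349 against 927 to 1063, and its part in the differences below was not tested. In such bulk RNA, fewer cells of a type and less RNA per cell cannot be told apart.

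When oxygen is limiting, the prolyl hydroxylases that mark the alpha subunits of hypoxia-inducible factor (HIF) for VHL-dependent degradation slow down, and HIF accumulates and binds DNA with its partner ARNT. HIF binds the core motifs ACGTG and GCGTG and induces genes for glucose uptake, glycolysis, vessel growth, mitophagy, mTOR restraint and histone demethylation. Several of its target genes, among them those of the hydroxylases, feed back on oxygen sensing.

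To show where such a motif lies, 250 bases upstream of the RefSeq start (GRCh38.p14) were searched for it. Among the 8 HIF target genes higher in both like-array comparisons, SLC2A1 held 0 matches there and BHLHE40 held 4, and neither is printed. VEGFA had no promoter among the sequences used and was not searched. The 5 of the 8 printed below each hold a match. Each reads 5′ to 3′ on the strand of the gene, and capitals mark ACGTG or GCGTG, or their reverse complements CACGT and CACGC.
ANKRD37 at chr4:185396591-185396840, plus strand: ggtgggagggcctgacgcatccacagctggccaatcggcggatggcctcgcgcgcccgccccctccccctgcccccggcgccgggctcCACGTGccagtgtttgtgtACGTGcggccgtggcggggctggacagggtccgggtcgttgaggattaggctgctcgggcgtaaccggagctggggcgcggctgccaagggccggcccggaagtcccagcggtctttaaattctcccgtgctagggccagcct
PFKFB4 at chr3:48556804-48557053, minus strand: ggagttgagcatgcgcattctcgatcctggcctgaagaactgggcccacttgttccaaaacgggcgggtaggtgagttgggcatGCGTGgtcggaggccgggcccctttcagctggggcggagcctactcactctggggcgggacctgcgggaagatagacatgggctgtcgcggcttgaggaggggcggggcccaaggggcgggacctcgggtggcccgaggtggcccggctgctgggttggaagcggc
PFKFB3 at chr10:6144671-6144920, plus strand: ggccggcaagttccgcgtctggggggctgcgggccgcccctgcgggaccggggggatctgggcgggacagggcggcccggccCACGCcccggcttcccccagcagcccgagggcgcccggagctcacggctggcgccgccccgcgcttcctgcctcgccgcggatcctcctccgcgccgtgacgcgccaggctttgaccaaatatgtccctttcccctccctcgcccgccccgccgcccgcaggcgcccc
KDM3A at chr2:86441121-86441370, plus strand: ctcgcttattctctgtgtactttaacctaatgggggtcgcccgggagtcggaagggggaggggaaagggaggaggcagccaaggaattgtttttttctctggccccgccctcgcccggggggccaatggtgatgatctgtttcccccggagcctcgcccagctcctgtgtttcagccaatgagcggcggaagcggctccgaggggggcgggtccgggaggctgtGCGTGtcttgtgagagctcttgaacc
DDIT4 at chr10:72273674-72273923, plus strand: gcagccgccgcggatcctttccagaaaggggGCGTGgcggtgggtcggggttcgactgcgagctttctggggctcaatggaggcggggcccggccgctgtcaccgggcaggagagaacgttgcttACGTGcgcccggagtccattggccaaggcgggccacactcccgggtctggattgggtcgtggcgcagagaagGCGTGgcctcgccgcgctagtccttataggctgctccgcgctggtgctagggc

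In windows of 300 bases (250 before the start and 50 after it), this motif on either strand occurred in 5057 of 7832 tested genes with a promoter in the table (64.6%). It occurred in 10 of the 11 HIF target genes called higher that were in the table (90.9%), in 56 of 84 of all genes called higher (66.7%) and in 65 of 98 called lower (66.3%). ACGTG overlaps the E-box CACGTG, which other factors bind and which ANKRD37 holds. A match describes the letters only.

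Genes were sorted with limma at an adjusted p under 0.05 over all 9621 genes, here a description of the chosen arrays. In this sort 228 genes (2.37%) were called between HLY hypoxia and SUDHL2 normoxia, 113 higher (1.17%) and 115 lower (1.20%) at 1% oxygen. In comparison, 2050 genes (21.3%) had arrays that did not overlap between these groups, and 1506 (15.7%) had an unadjusted p under 0.05. All 113 higher and all 115 lower genes were without overlap, so where a called gene is said not to overlap, this adds nothing to its call. The called differences ran from 0.51 to 3.71 on the log2 scale among the higher genes and from 0.50 to 1.33 in size among the lower. The 6 largest fitted increases exceeded 2 (ANKRD37, PFKFB4, FOS, HILPDA, PFKFB3 and KDM3A, with FOS measured against values below background), whereas no decrease reached that size. Scaling each array by its median over all probes, in place of quantile normalization, moved the median of all genes by 0.21. It left 29 genes called higher and 0 lower, with 772 higher and 103 lower at an unadjusted p under 0.05. Centring each array on the median of the kept probes instead, a setting added after seeing the data, gave 75 higher and 99 lower. Leaving out HLY-hypoxia array 3 left 60 higher and 52 lower, and 48 higher and 41 lower genes were called whichever of the 6 arrays was left out.

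HIF target genes led the genes that were higher at 1% oxygen. Of 70 listed targets, 46 were tested, and 14 were called higher and 1 lower, against 1.17% and 1.20% of all genes. The median difference was 0.20 over the 46 and -0.00 over all genes. The 14 were ANKRD37, PFKFB4, HILPDA, PFKFB3, KDM3A, DDIT4, SLC2A1, VEGFA, HK2, MXI1, BNIP3L, P4HA1, BHLHE40 and POFUT4 (formerly FUT11). The count was 11 after median scaling and 13 to 15 when any of the 12 arrays was left out.

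ANKRD37, an ankyrin-repeat gene and direct HIF target, showed the largest difference. Its log2 values were 10.69, 10.14 and 10.60 on the HLY-hypoxia arrays and 6.76, 6.76 and 6.78 on the SUDHL2-normoxia arrays. Before normalization these were intensities of 1665, 2141 and 1731 against 232, 213 and 186. The groups lay far apart, with a log2 difference of 3.71 (95% interval 3.41 to 4.01, n = 3 against 3), or 13.1-fold.

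**Figure D1:**
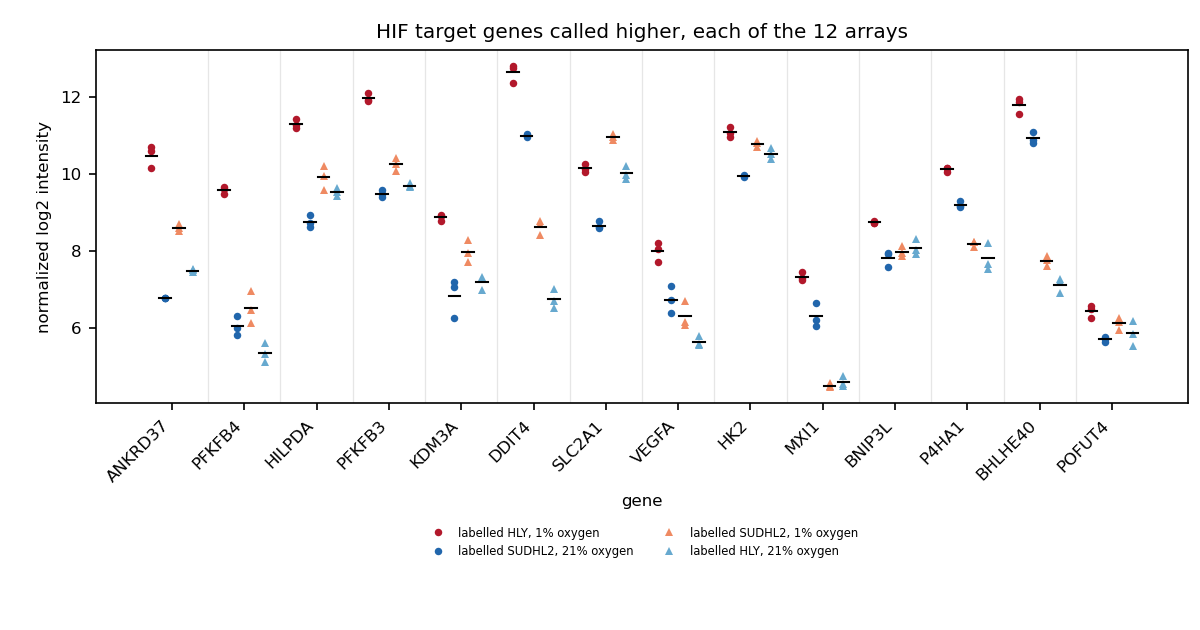
Normalized log2 intensity (vertical axis) of the 14 HIF target genes called higher in HLY hypoxia against SUDHL2 normoxia, on each of the 12 arrays. Points are arrays coloured by labelled group and bars are means of 3; for ANKRD37 the HLY-hypoxia arrays lie between 10.14 and 10.69 and the SUDHL2-normoxia arrays between 6.76 and 6.78.

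The enzymes PFKFB4 and PFKFB3, which set the level of fructose 2,6-bisphosphate and so the pace of phosphofructokinase, came next among metabolic genes. PFKFB4 was 9.47, 9.61 and 9.66 in HLY hypoxia and 5.98, 6.31 and 5.80 in SUDHL2 normoxia, where 2 of 3 arrays were above background, a difference of 3.55 (3.12 to 3.99). PFKFB3 was 11.92, 11.89 and 12.11 against 9.48, 9.58 and 9.40, a difference of 2.49 (2.22 to 2.76), and its other kept probe gave 2.76. Neither gene overlapped between groups.

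SLC2A1 (GLUT1), the transporter that carries glucose into the cell, was 10.27, 10.12 and 10.04 against 8.77, 8.61 and 8.59, a difference of 1.49 (1.21 to 1.76). HK2, the hexokinase that traps glucose as its phosphate, was 11.08, 11.23 and 10.97 against 9.95, 9.91 and 9.98, a difference of 1.14 (0.88 to 1.41), and its other kept probe gave 1.00. These 4 were the only genes called among 26 tested genes of glucose uptake and glycolysis, where the median difference was 0.11. HK1, another hexokinase, differed by -0.46, the lowest value of this list, and was not called. The enzymes of the pathway's body were close to level, with differences of 0.13 for GPI, 0.03 for TPI1, 0.14 for GAPDH, 0.12 for PGK1, 0.15 for ENO1 and 0.20 for LDHA. PDK1, the kinase that holds pyruvate dehydrogenase inactive, differed by 0.52 and was not called.

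KDM3A, a Jumonji demethylase of histone H3 lysine 9 that itself needs oxygen, was 8.77, 8.91 and 8.92 in HLY hypoxia and 7.05, 6.26 and 7.18 in SUDHL2 normoxia. Its difference was 2.03 (1.57 to 2.50), or 4.10-fold, with SUDHL2-normoxia array 2 below its companions. Among 20 tested Jumonji and TET genes it was the only gene called; KDM4B and KDM4C, also known HIF targets, differed by 0.00 and -0.24.

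DDIT4 (REDD1), which restrains mTORC1 through the TSC complex, was 12.77, 12.37 and 12.80 against 11.04, 10.96 and 11.01, a difference of 1.65 (1.30 to 1.99). No other of the 21 tested genes of mTOR and its stress inhibitors was called. VEGFA, the angiogenic growth factor, was 8.04, 7.71 and 8.21 against 7.08, 6.71 and 6.38, a difference of 1.26 (0.83 to 1.70), and its other kept probe gave 0.74. HILPDA, which inhibits triglyceride breakdown at lipid droplets, was 11.19, 11.42 and 11.27 against 8.71, 8.62 and 8.92, a difference of 2.54 (2.21 to 2.87). None of these 3 genes overlapped between the groups.

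The smaller differences of the list covered several roles. MXI1, a MAX partner that opposes MYC, differed by 1.04, the mitophagy receptor BNIP3L by 0.93, the collagen prolyl hydroxylase subunit P4HA1 by 0.93 and the clock-linked repressor BHLHE40 by 0.87. POFUT4 was not above background on any SUDHL2-normoxia array and was at least 1.55-fold higher in HLY hypoxia. TFRC, the transferrin receptor, was the exception in direction at 10.88, 10.88 and 10.79 against 11.47, 11.69 and 11.21, a difference of -0.60. It was not called when the 6 arrays were fitted or normalized alone, or after median scaling (-0.35, adjusted p = 0.636 in limma). Its call was also lost in other settings, among them those that left out any single HLY-hypoxia array. CXCR4 (-0.19), NDRG1 (-0.03) and ALDOC (-0.10) were not called.

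Of 16 tested genes of the HIF machinery itself, limma called 0 at an adjusted p under 0.05 in the first pair, and 4 were higher and 1 lower at an unadjusted p under 0.05. The largest difference was that of the oxygen sensor EGLN1, itself a HIF target, at 7.28, 7.43 and 7.46 against 6.74, 6.89 and 6.78 (0.58, 0.27 to 0.90), without overlap. HIF1A, whose protein rather than transcript is the oxygen-regulated step, differed by 0.08, and ARNT by 0.50.

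**Figure D2:**
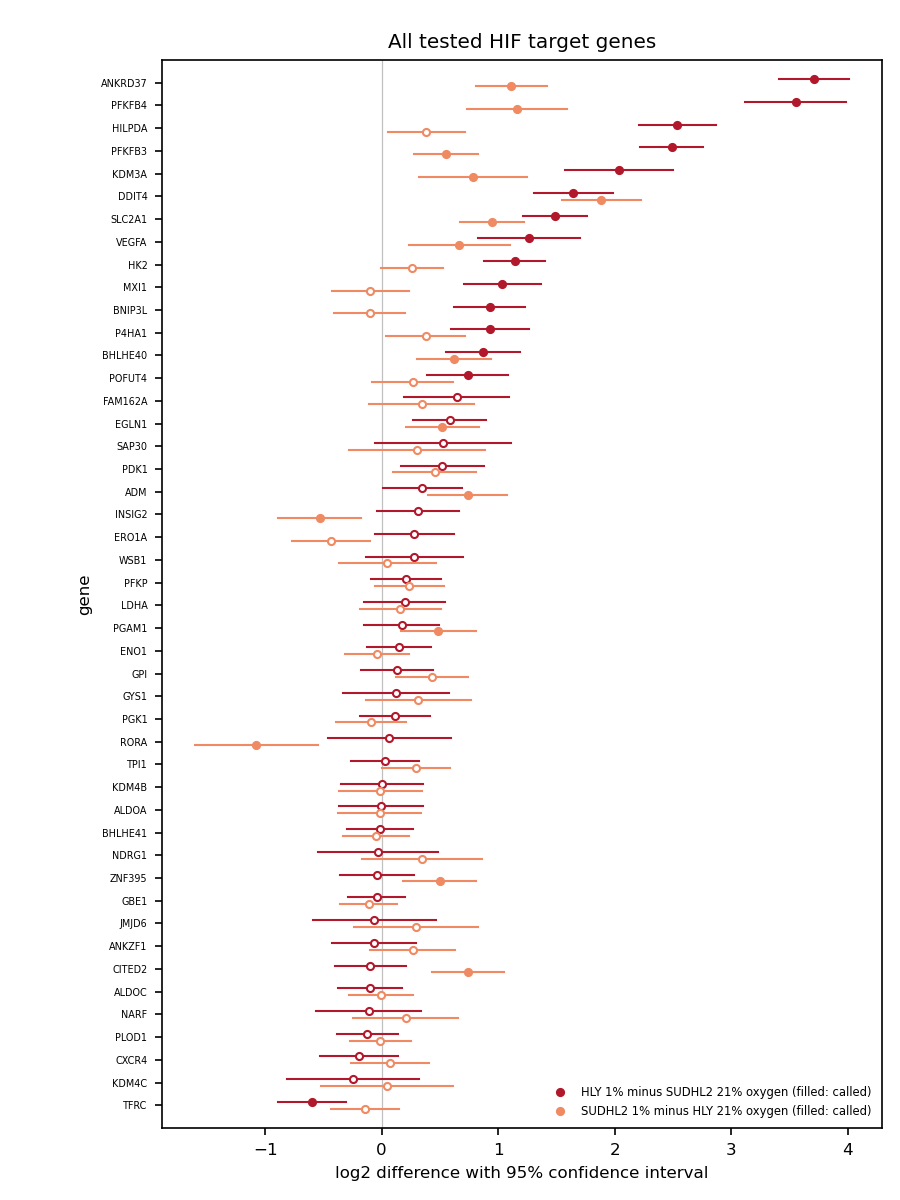
Log2 difference between 1% and 21% oxygen (horizontal axis, with 95% confidence interval) for each of the 46 tested HIF target genes, in HLY hypoxia against SUDHL2 normoxia and in SUDHL2 hypoxia against HLY normoxia. Filled points were called; 14 genes are filled to the right of 0 in the first comparison and 13 in the second, 8 of them in both.

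The same genes were next tested in SUDHL2 hypoxia against HLY normoxia. Here limma called 1535 of 9621 genes (16.0%), 558 higher (5.80%) and 977 lower (10.2%) at 1% oxygen. Of the 113 genes called higher in the first comparison, 22 were called higher again (19.5% of them, and 3.94% of the 558), and 79 had a positive difference (69.9%, against 56.4% of all genes). The median difference of the 113 was 0.82 in the first comparison and 0.13 in the second. Among the 15 largest increases, 10 were called higher again. Without HLY-normoxia array 1 the 22 became 14, this count was 14 to 28 over the 12 arrays left out in turn, and median scaling left 1.

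Of the 46 tested HIF targets, 13 were called higher and 2 lower (INSIG2 and RORA) in the second pair, with a median of 0.28. Of all genes, 5.80% were called higher and 10.2% lower in that pair. The genes higher in both comparisons included 8 HIF targets, namely ANKRD37, PFKFB4, PFKFB3, KDM3A, DDIT4, SLC2A1, VEGFA and BHLHE40. DDIT4 had the largest second difference, at 8.41, 8.77 and 8.69 in SUDHL2 hypoxia and 7.00, 6.68 and 6.52 in HLY normoxia (1.89, SE 0.158, adjusted p = 9.27e-05 in limma), and its difference between the pairs was -0.24 (SE 0.224). ANKRD37 was 8.51, 8.70 and 8.59 against 7.52, 7.50 and 7.43 (1.11, adjusted p = 3.49e-04 in limma). Both genes were higher at 1% oxygen on every array of both pairs. SLC2A1 rose by 0.95 in the second pair (adjusted p = 4.90e-04 in limma), with 11.04, 10.96 and 10.89 against 10.22, 9.86 and 9.97. KDM3A rose by 0.78 (adjusted p = 0.0256), VEGFA by 0.67 (adjusted p = 0.0394), BHLHE40 by 0.62 (adjusted p = 0.0124) and PFKFB3 by 0.55 (adjusted p = 0.0102), all in limma. PFKFB4 was detected on 2 SUDHL2-hypoxia arrays and on no HLY-normoxia array, and was at least 1.55-fold higher there (adjusted p = 0.00207 in limma). Another 5 targets rose in the second pair without a call in the first, EGLN1 by 0.52, the vasoactive peptide gene ADM by 0.74, the glycolytic enzyme PGAM1 by 0.49, ZNF395 by 0.50 and the HIF antagonist CITED2 by 0.74. Their first differences were 0.58, 0.35, 0.17, -0.04 and -0.10, with ADM below background on all 6 arrays of the first pair.

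Besides the HIF targets, 14 genes were higher in both, among them the stress transcription factors ATF3 (0.72 and 0.50) and ATF5 (0.52 and 0.63), the NF-kappaB subunit RELB (0.98 and 0.54) and the autophagy modulator DRAM1 (0.66 and 0.78). MIR503HG, the host transcript of a microRNA cluster, was 11.14, 11.37 and 11.32 against 10.01, 10.01 and 9.89 in the first pair (1.31) and rose by 0.70 in the second (adjusted p = 0.00766 in limma). RIPOR2, an inhibitor of RhoA, differed by 1.39 and 0.47 (adjusted p = 0.0325 in limma for the second). The rest of the 14 were the chemokine gene CCL3L3, the DNA endonuclease subunit MUS81, the ribosome assembly factor PES1, the ubiquitin enzymes UBE2J2 and WWP2 and the small nucleolar RNAs SNORA3B, SNORD34 and SNORD99. Members of the 14 outside the gene lists and the largest increases were named after their values were seen.

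**Figure D3:**
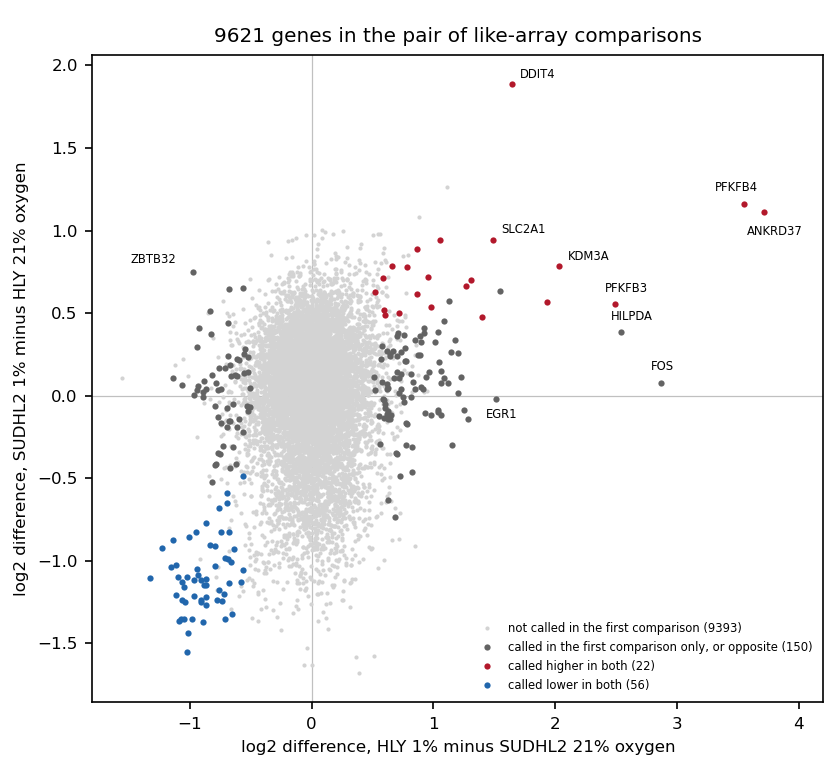
Log2 difference between 1% and 21% oxygen of each of 9621 genes in HLY hypoxia against SUDHL2 normoxia (horizontal axis) and in SUDHL2 hypoxia against HLY normoxia (vertical axis), pairs that share no array. Red marks the 22 genes called higher in both, blue the 56 called lower in both and dark grey the other 150 called in the first comparison. The blue genes lie at the lower left, where their selection places them.

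Immediate early genes, which signalling cascades switch on within minutes, were called in 6 of 22 tested members, all of them higher in HLY hypoxia (against 1.17% of all genes), and the other 16 were not called. The median of the 22 was 0.26, and 17 were positive. FOS, a subunit of the transcription factor AP-1, was 7.55, 7.63 and 7.37 in HLY hypoxia and was not well above background on any SUDHL2-normoxia array, at 4.84, 4.57 and 4.54, so that it was at least 3.28-fold higher. In the second pair FOS was below background on all 6 arrays. EGR1, a zinc-finger transcription factor, was 8.36, 8.20 and 8.20 against 6.70, 6.79 and 6.71 (1.52, 1.27 to 1.76), and below background on the other 6 arrays. The AP-1 subunit JUN was 8.03, 7.78 and 8.09 against 7.18, 7.01 and 7.18, and differed by 0.85 in the first pair and by 0.04 in the second (adjusted p = 0.877 in limma), where it was well above background. BTG1, an antiproliferative gene, differed by 0.82 and -0.31. FOSB was at least 1.26-fold higher in the first pair, and ATF3, at 7.90, 7.96 and 8.10 against 7.10, 7.52 and 7.18, was the only gene of the 6 called in the second (0.50, adjusted p = 0.0203 in limma).

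**Figure D4:**
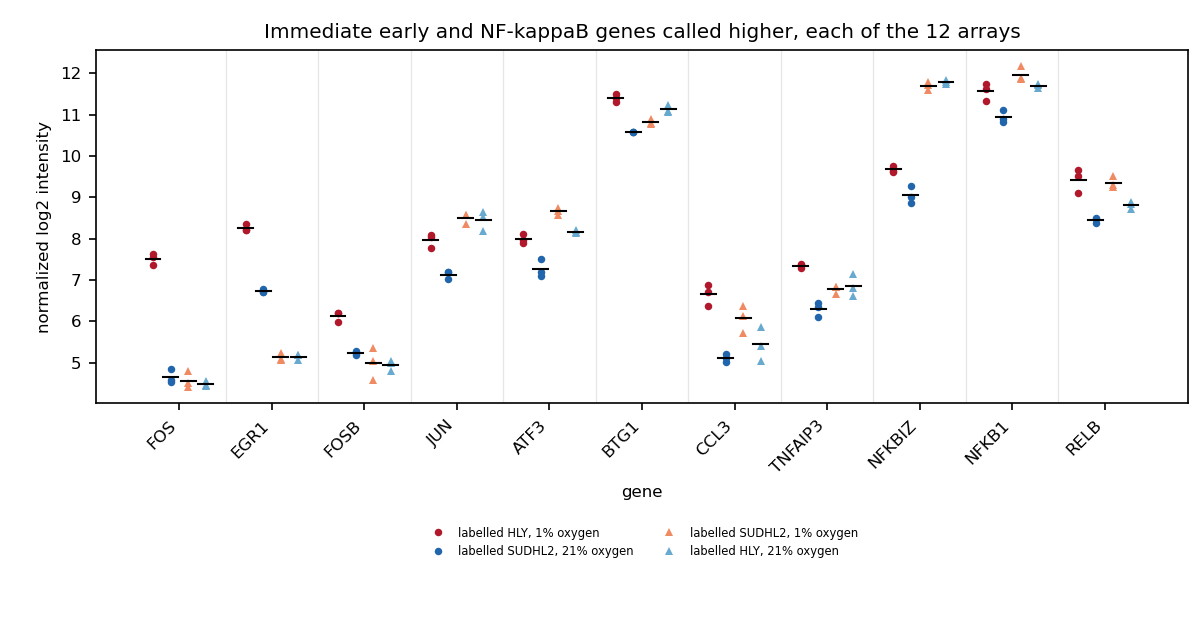
Normalized log2 intensity (vertical axis) of the immediate early genes and the NF-kappaB feedback genes called higher in HLY hypoxia against SUDHL2 normoxia, on each of the 12 arrays coloured by labelled group, with bars at the means of 3. FOS lies between 7.37 and 7.63 in HLY hypoxia and between 4.54 and 4.84 in SUDHL2 normoxia, with the remaining 6 arrays at similarly low values.

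Genes that NF-kappaB induces or that form it were called in 5 of 16 tested members, all higher (against 1.17% of all genes). The median of the 16 was 0.19. TNFAIP3 (A20), the ubiquitin-editing brake on NF-kappaB, was 7.28, 7.35 and 7.39 against 6.44, 6.36 and 6.12 (1.04), and -0.09 in the second pair (adjusted p = 0.719 in limma). RELB was 9.52, 9.10 and 9.66 against 8.50, 8.37 and 8.47 (0.98), NFKBIZ differed by 0.63 and NFKB1 by 0.62. The chemokine CCL3 was not above background on any SUDHL2-normoxia array and was at least 1.80-fold higher in HLY hypoxia, and CCL3L3 at least 1.99-fold. Probes of CCL3, CCL3L3 and CCL3L1 detect near-identical copies, so which of these genes was measured is uncertain. Outside the lists, and named after its values were seen, the cytokine gene IL6 was 10.27, 10.37 and 10.25 against 8.96, 9.13 and 9.19 (1.20). Its second difference was 0.26 (adjusted p = 0.278 in limma).

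Other stress and survival lists gave few called genes in number, though in some small lists the share was above that of all genes. Called higher were 11.1% of ATF4 target and serine synthesis genes, against 1.17% of all genes. The share was 14.3% for BCL2 family genes and 14.3% for histone genes. Among unfolded protein response genes, cytosolic heat shock proteins and p53 targets, 0 were called higher. Of 27 ATF4 target and serine synthesis genes, ATF3, ATF5 and CHAC1 (0.81), which degrades glutathione, were the only genes called, all higher, whereas ATF4 differed by 0.11 and ASNS by 0.13. BCL2, the anti-apoptotic gene, was 7.72, 8.12 and 7.73 against 6.97, 6.89 and 6.51 (1.06) and BNIP3L was the other of 14 BCL2 family genes called. The other kept probe of BCL2 gave 1.00 in the first pair, and BCL2 differed by -0.12 in the second (adjusted p = 0.644 in limma). Of 14 histone genes, H2BC5 (1.06) and H2AC6 (at least 1.23-fold) were called higher, but the other kept probe of H2BC5 gave 0.09. The histone genes of a class are close in sequence, so their probes may share signal.

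Small noncoding RNA genes stood out by count. Of 107 tested small nucleolar RNA genes, which guide chemical modification of ribosomal RNA, 12 were called, all of them higher (11.2%, against 1.17% of all genes), with a median of 0.30 and 86 positive. SNORD100 was 7.55, 7.72 and 7.39 against 6.36, 6.46 and 6.30 (1.18) and SNORD34 was 6.64, 6.71 and 6.73 against 5.62, 5.98 and 5.89 (0.86). In the second pair 13 of the 107 were called higher and 9 lower, against 5.80% and 10.2% of all genes. SNORD34 (0.89, adjusted p = 7.78e-04 in limma), SNORA3B (0.94, adjusted p = 0.00335) and SNORD99 (0.72, adjusted p = 0.00529) were the members higher in both. Of 11 tested spliceosomal small nuclear RNA genes, 4 were called higher (RNU11, RNU4-2, RNU4ATAC and RNVU1-18), and all 11 had a positive difference, with a median of 0.75. Their second differences were 0.14, 0.21, -0.01 and 0.09, with adjusted p of 0.415 to 0.98 in limma. Labelling was primed with oligo-dT, whereas the mature forms of these RNAs generally lack a poly(A) tail, and which RNA their probes measured was not tested.

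Lower at 1% oxygen were 2 genes of the tricarboxylic acid cycle among 23 tested (1.20% of all genes were called lower, and 0 after median scaling), both isocitrate dehydrogenases that form alpha-ketoglutarate. IDH3A, of the mitochondrial enzyme, was 8.50, 7.95 and 8.08 against 8.76, 9.11 and 8.80 (-0.71), and IDH1, the cytosolic enzyme, was 8.13, 8.32 and 8.21 against 9.01, 8.89 and 8.61 (-0.62). Neither gene overlapped between groups, and neither was called in the second pair (0.17, adjusted p = 0.544, and -0.19, adjusted p = 0.364, in limma). Of 41 respiratory chain genes, limma called 0 in either pair, with medians of -0.02 and 0.15. At an unadjusted p under 0.05, 1 was higher and 1 lower in the first pair and 4 higher and 1 lower in the second.

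TXNIP, which limits glucose uptake and is induced by glucose, was 10.51, 10.29 and 10.38 in HLY hypoxia against 11.46, 11.38 and 11.25 (-0.97). The MAX partner MXD4 was lower by -0.88, opposite to MXI1, while MYC itself differed by -0.06. The cell cycle inhibitor CDKN1A (p21) was 12.17, 12.28 and 12.30 against 12.69, 12.84 and 12.85 (-0.55). None of the 3 lower genes named here was called in the second pair, where they differed by 0.00, 0.09 and 0.29. GPR25, a G-protein-coupled receptor, and S1PR4, a lymphocyte receptor for sphingosine 1-phosphate, differed by -1.14 and -1.07 in the first pair and by 0.11 and 0.07 in the second, with GPR25 below background on all 6 arrays there. S1PR4 was not called after median scaling (adjusted p = 0.217 in limma), when the 6 arrays were normalized alone, without a detection filter, or without any of HLY-hypoxia arrays 2 and 3 and SUDHL2-normoxia arrays 1 and 3.

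Of the 115 genes called lower, 56 were called lower again in SUDHL2 hypoxia against HLY normoxia (48.7% of them, and 5.73% of the 977), and 80 had a negative difference (69.6%, against 43.6% of all genes). Without HLY-hypoxia array 3 the 56 became 31 and without SUDHL2-normoxia array 3 they became 34. Median scaling left 0, and centring on the kept probes left 53. The 56 included 13 of the 15 largest decreases. COA8, a cytochrome c oxidase assembly factor, was 8.78, 8.44 and 8.60 against 10.19, 9.49 and 10.13 (-1.33) and 9.76, 9.41 and 9.63 against 10.79, 10.83 and 10.49 in the second pair (-1.11, adjusted p = 0.00158 in limma). TDP1, which repairs topoisomerase-linked DNA ends, was 8.17, 8.12 and 8.12 against 9.34, 8.89 and 9.60 (-1.14), and -0.87 in the second pair (adjusted p = 0.00241 in limma). The p53-induced gene ZMAT3 differed by -1.23 and -0.92, the nicotinic receptor subunit gene CHRNA5 by -1.10 in the first pair and the RNA helicase gene DDX51 by -1.04. Of the 56, 1 belonged to a gene list examined here, ZMAT3, and 8 were zinc finger genes named ZNF, of which 252 were tested.

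The 56 genes were chosen as lower in both pairs, so their lower values at 1% oxygen within each pair follow from that choice. Relative to each gene's own mean over 12 arrays, the array medians of the 56 were -0.95 to -0.79 in HLY hypoxia, -0.14 to 0.33 in SUDHL2 normoxia, -0.26 to -0.05 in SUDHL2 hypoxia and 0.84 to 1.03 in HLY normoxia. In 25 of the 56 another probe of the gene was kept, 33 probes in all. The brightest probes, which stood for the genes, had a median difference of -0.91 over these 25, and the other probes -0.12. The other probes had the opposite sign in 11 of the 25. In 4 they reached 50% of the size in either direction, among them BLZF1 (-1.06 against -0.68) and SLC4A7 (-0.80 against -0.64). Another of the 4 was SLC35E1, whose other probes had the opposite sign (0.45 and 0.36 against -0.58). Those of TDP1 gave -0.09 and -0.30, that of DDX51 -0.00 and that of HNRNPU 0.28 against -0.91. The other probes of ZMAT3 gave -0.52 and -0.04, and that of CHRNA5 gave 0.07. By comparison, for the 20 genes called higher with another kept probe the medians were 0.75 and 0.38, with the same sign in 18. The decreases of the 56 genes were thus measured by single probes in most cases, and whether the transcripts as a whole differed was not tested. BMS1P1, a pseudogene, and LOC100128288, an uncharacterized locus, were also among the largest decreases (-1.11 and -1.15), and signal from related loci was not separated.

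**Figure D5:**
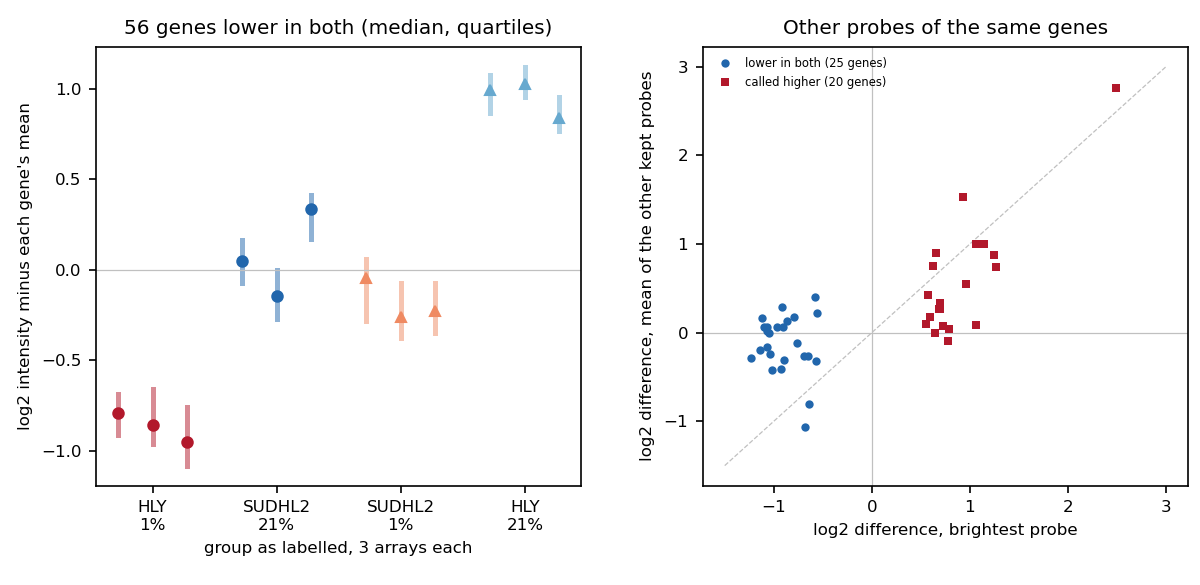
Left, log2 intensity minus each gene's mean over 12 arrays for the 56 genes called lower in both comparisons, by array (points, medians; bars, quartiles), lowest in HLY hypoxia and highest in HLY normoxia. Right, log2 difference of HLY hypoxia minus SUDHL2 normoxia by the brightest probe (horizontal axis) and by the mean of the other kept probes (vertical axis), for 25 of the 56 genes, with medians of -0.91 and -0.12 and the lowest other probe at -1.06 (BLZF1), and for 20 genes called higher; the dashed line marks equality.

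A further 7 genes were called in opposite directions by the pairs, and apart from ZBTB32 and DNAJB1 were named after their values were seen. BCLAF1 and NAMPT, the NAD salvage enzyme, were higher in HLY hypoxia (0.63 and 0.68) and lower in SUDHL2 hypoxia (-0.63, adjusted p = 0.00771, and -0.74, adjusted p = 0.00289, in limma). DNAJB1, a heat-shock co-chaperone, was 8.50, 8.35 and 8.31 against 8.93, 9.10 and 9.18 in the first pair (-0.68) and 9.25, 9.42 and 9.56 against 8.87, 8.59 and 8.83 in the second (0.65, adjusted p = 0.00555 in limma). FAM86C1P, POLR3A, SAC3D1 and ZBTB32 were likewise lower in the first pair and higher in the second. The difference between the pairs, which uses the chosen arrays and is given as a description, passed the threshold for 560 of all genes (5.82%), among them 48 of the 113 higher and 31 of the 115 lower genes. This count was 1349 without SUDHL2-hypoxia array 1.

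The genes the study names from its arrays were also placed in this comparison; since these lists were chosen on these arrays, their direction is not independent evidence. Of 12 metabolic genes, SLC2A1, HK2, VEGFA and PFKFB3 were called, all higher. Of 20 tested growth and signalling genes EGR1 and DDIT4 were higher, of 7 genes named for SUDHL2 only IDH3A was called, lower, and of 10 ribosomal genes limma called 0, with 2 higher at an unadjusted p under 0.05. RPS23 differed by 0.38 and RPL28 by 0.47 in the first pair.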

How the data were processed

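RNA of HLY-1 and SUDHL2 cells at 1% or 21% oxygen was read on 12 single-colour beadchips. The authors deposited the intensity of each of 47230 probes, exported from GenomeStudio 2011.1 without normalization, a detection p-value per probe, and a score, which is the z-score of log10 intensity within an array (recomputed within 0.0109). Intensities were corrected and quantile-normalized over 12 arrays with neqc (offset 16) of limma 3.58.1 in R 4.3.3. A probe was kept if its detection p lay below 0.01 on 3 or more of the 12 arrays (16288 probes, 12684 with a gene symbol). In the platform annotation, 30113 probes had 1 symbol, 8 several and 17109 none. The brightest probe stood for each of the 2492 genes with several, which gave 9621 genes.

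Group means were fitted to all 12 arrays with limma (8 residual and 6.0 prior degrees of freedom), with Benjamini-Hochberg adjustment over all genes and a threshold of 0.05. Intervals are 95% confidence intervals from this fit. Where a gene was not above background on any of the 3 arrays of a group, a lower bound of its fold is given, computed against the dimmest signal above background on each array. Members, comparisons and gene lists were chosen with earlier results of these data known. Named genes were the 15 largest increases and decreases called without overlap of arrays, called list members, members of the HIF and glycolysis lists, the 10 largest differences between the pairs, and genes the study names. Median intensities per array were 111 to 149 and 12322 to 14925 probes were detected; the number of arrays limits precision. Promoters and gene names came from RefSeq (GRCh38.p14). Scripts were tested on simulated data. Figures used Python 3.11.15 with pandas 2.3.3 and matplotlib 3.10.9. No slide or scan date is given in the sources used here.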

Additional observations from a re-analysis of the deposited data

Results flagged for a closer look

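The difference between 1% and 21% oxygen was set side by side between HLY hypoxia against SUDHL2 normoxia and SUDHL2 hypoxia against HLY normoxia, in the same limma fit. At an adjusted p under 0.05 it differed for 560 of 9621 genes (5.82%), among them 48 of the 113 genes called higher and 31 of the 115 called lower. Without SUDHL2-hypoxia array 1 the count was 1349, and without HLY-normoxia array 2 it was 188. Most genes below were picked for a large difference in the first pair, which favours an excess there, so their gaps are a description and not evidence that the pairs differ.

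Of the 14 HIF target genes called higher in the first pair, 8 had a gap past this threshold, on the log2 scale 2.60 for ANKRD37, 2.39 for PFKFB4, 2.15 for HILPDA, 1.94 for PFKFB3, 1.25 for KDM3A, 1.13 for MXI1, 1.03 for BNIP3L and 0.88 for HK2. Over all 46 tested targets the medians were 0.20 in the first pair and 0.28 in the second, and CITED2 had a gap of -0.84. The second difference was 0.38 for HILPDA (adjusted p = 0.109 in limma) and 0.26 for HK2 (adjusted p = 0.164). MXI1 was below background on the 6 arrays of the second pair and PFKFB4 on the 3 HLY-normoxia arrays. The fitted gaps of MXI1 and PFKFB4 are therefore no measure of size. The other kept probe of HK2 gave 0.62 in the second pair.

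Among the other largest increases the gap was 1.43 for RGS1, a G-protein brake in lymphocytes, and 0.92 for RIPOR2. Fitted gaps of 2.79 for FOS, 1.54 for EGR1, 1.37 for CCL3L3 and -1.25 for GPR25 involve groups below background and are no measure of size. FOS was below background in all groups but HLY hypoxia, and CCL3L3 in SUDHL2 normoxia, while EGR1 and GPR25 were below background on all arrays of the second pair.

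For TMF1, and for the brightest probe of SAMSN1, the difference lay mainly in the second pair. TMF1, a Golgi-associated factor, fell by 1.58 in SUDHL2 hypoxia and differed by 0.51 in HLY hypoxia, 2.09 apart. SAMSN1, an adaptor of lymphocyte signalling, fell by 1.58 and differed by 0.36, 1.95 apart. The other kept probe of SAMSN1 gave 0.70 in the first pair and -0.82 in the second, closer in size. RASSF6 fell by 1.68 in the second pair and was not above background on the 6 arrays of the first, so its fitted gap of 2.07 is no measure of size, and its other kept probes gave -0.07 and -0.70 in the first pair.

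TAF1D, a subunit of the RNA polymerase I selectivity factor, differed by 0.85 in the first pair, where it was not called, and by -0.91 in the second (adjusted p = 0.0104 in limma), 1.76 apart. ZBTB32, a zinc-finger transcriptional repressor, was called in opposite directions, at 6.94, 6.48 and 6.80 against 7.80, 7.71 and 7.65 in the first pair (-0.98) and 5.84, 5.92 and 5.75 against 5.17, 5.16 and 4.93 in the second (0.75, adjusted p = 0.00292 in limma), a gap of -1.73.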

How the results depend on the processing

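Over the alternatives, no gene called in HLY hypoxia against SUDHL2 normoxia was called in the opposite direction. Median scaling gave 29 genes higher, 0 lower, 1 and 0 called the same way in the second pair and 6 that differed between the pairs. Centring on the kept probes, added after seeing the data, gave 75 higher and 99 lower. In that setting 19 and 53 were called the same way in the second pair, and 377 differed between the pairs. The lower genes numbered 65 when the 6 arrays were normalized alone, 76 when fitted alone and 65 on the deposited scores. The selection in the methods gave 445 higher and 220 lower (66.9% higher, against 49.6%). Genes that differed between the pairs numbered 904 without background correction and 367 without a detection filter. With single arrays left out, the ranges were 60 to 158 higher, 52 to 142 lower, 14 to 28 and 31 to 63 called the same way in the second pair, 188 to 1349 for the difference between pairs, and 13 to 15 HIF targets. With replicate number as a block, 92 genes were higher and 89 lower. Deviations of same-numbered HLY-hypoxia and SUDHL2-normoxia arrays had r of -0.19, -0.06 and -0.00, against -0.14 to 0.22 for arrays of other numbers. These values cannot settle whether the numbers pair arrays, because arrays of the same line label were not compared. Of the 15 largest increases 15, and of the 15 largest decreases 14, were called whichever of the 6 arrays was left out. Averaging the kept probes ended the call of 7 named genes, TDP1, CEP19, CHRNA5, ZNF69, FKBP14, EID2B and DDX51. POFUT4 lost its call in 4 settings without an array left out, beside median scaling. Dim genes have only lower bounds.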
